A study of Homo sapiens with 16 samples.

Results

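The enzymes that make and desaturate fatty acids were followed in ribosome footprints and total RNA of MDA-MB-231 cells, a human triple-negative breast cancer line. They are the 10 genes with the symbols ACLY, ACSS2, ACACA, FASN, ELOVL5, ELOVL6, SCD, FADS1, FADS2 and FADS3, of 26485 genes listed in total RNA and 13804 with a footprint in any library. The enzymes were chosen by symbol, as steps of the pathway, and no measured value enters that rule, but the list was drawn up with earlier footprint results of these libraries known. Counts of enzymes given here are therefore a description and no independent evidence of a direction, and each p-value comes from a fit across all genes.

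The cells carried CRISPRi, in which a guided inactive Cas9 represses its target, aimed at tRNA-Ile-GAU or at eGFP, a gene that human cells lack. They also carried an overexpression construct, either for tRNA-Ile-UAU or a control. The 4 conditions were the double modulation (tRNA-Ile-GAU guide and tRNA-Ile-UAU construct), the tRNA-Ile-UAU construct alone (eGFP guide), the tRNA-Ile-GAU knockdown alone (control construct) and the control (eGFP guide and control construct). Each had 2 footprint and 2 total RNA libraries. Every condition was grown in DMEM with 10% serum with no other treatment and lysed in cycloheximide, and the labels name the source as a xenograft cell line. They do not say whether the replicates were separate cultures or whether a line was 1 clone, so the tests speak only for how far these libraries lie apart, which may be technical. The guide, the tRNA it targets and the cells that received it cannot be told apart. The stated question is how ribosome occupancy changes when one isoleucine tRNA is raised and the other lowered; codon content was not analysed here.

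Footprint libraries held 358340 to 938909 reads on genes and total RNA libraries 2512247 to 5446599. The footprint range was 358340 to 607919 with the eGFP guide and 639320 to 938909 with the tRNA-Ile-GAU guide. Replicates correlated at r = 0.947 to 0.970 over genes in footprints. In total RNA the double-modulation replicates correlated at r = 0.958, against 0.983 to 0.986 in the other 3 conditions. Total RNA of FASN, SCD and FADS2 in the double modulation is therefore given below with and without each of its libraries. That of FADS1 is given with both and without replicate 1. All 6 genes listed for the line (VIM, CD44, AXL, CAV1, MSN, LGALS1) were present in every library, with a summed footprint level of 17427 to 20203 CPM. LGALS1 was uneven in total RNA, at 45.1 to 430 CPM, but not in footprints, at 1450 to 1632 CPM, and the cause was not tested. CPM are read counts scaled to a common library size with TMM factors. ESR1, PGR and CDH1, which triple-negative mesenchymal cells lack, reached at most 2.41 CPM, and GATA3 5.05 to 14.3 CPM in footprints. The defining genes of fat cells (ADIPOQ, PLIN1, FABP4) and liver cells (ALB, APOB, APOA1) had 0 footprints in all libraries, while those of immune cells summed to at most 6.02 CPM and of endothelium to at most 8.43 CPM of footprints. These are bulk libraries, so a lower level in every cell and a loss in some cells cannot be told apart.

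Fatty acids are built from acetyl-CoA in the cytosol. ACLY makes acetyl-CoA from citrate and ACSS2 from acetate, ACACA carboxylates it to malonyl-CoA, and FASN joins the units into palmitate, which ELOVL6 lengthens. SCD places the first double bond in saturated acyl-CoA. FADS2, ELOVL5 and FADS1 act in turn on dietary polyunsaturated fatty acids, and FADS3 desaturates sphingoid bases. Many of these genes are transcribed under SREBP-1, the product of SREBF1, which INSIG1 holds back in the endoplasmic reticulum together with SCAP when sterols are plentiful. In cancer cells the pathway supplies membrane lipid.

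Of the enzymes whose footprints moved together, SCD, FADS1 and FADS2 have promoters in the RefSeq table used here (GRCh38.p14), which matched 9 of the 10 enzymes with 14 windows; FASN was not matched. The windows run from 250 bases before to 50 bases after a transcript's start and were searched on both strands for TCACNCCAC (the core of a sterol regulatory element), CCAAT (the NF-Y box) and GGGCGG (the Sp1 box). A window with several matches counted once per motif, whether or not they overlapped one another. They are shown 5′ to 3′ on the gene's strand, with matches to the first 2 motifs in capitals. SCD, on the plus strand of chromosome 10 (chr10:100346983-100347282), has CCAAT 229 and 186 bases before its start. FADS1, on the minus strand of chromosome 11 (chr11:61816954-61817253), has neither motif. The window of the downstream of the 2 FADS2 starts, on the plus strand (chr11:61816154-61816453), has CCAAT 5 bases after the start.
SCD: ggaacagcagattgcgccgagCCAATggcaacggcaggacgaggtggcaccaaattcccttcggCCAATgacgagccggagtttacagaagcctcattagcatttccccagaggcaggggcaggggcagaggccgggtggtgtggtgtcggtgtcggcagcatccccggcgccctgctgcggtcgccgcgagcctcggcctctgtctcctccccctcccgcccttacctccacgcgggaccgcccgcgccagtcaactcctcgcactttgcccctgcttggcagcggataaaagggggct
FADS1: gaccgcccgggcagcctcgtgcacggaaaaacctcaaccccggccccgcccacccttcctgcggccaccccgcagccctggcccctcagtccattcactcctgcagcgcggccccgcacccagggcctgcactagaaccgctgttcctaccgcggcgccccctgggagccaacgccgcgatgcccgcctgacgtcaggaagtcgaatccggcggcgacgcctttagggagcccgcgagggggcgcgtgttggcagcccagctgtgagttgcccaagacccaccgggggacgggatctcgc
FADS2: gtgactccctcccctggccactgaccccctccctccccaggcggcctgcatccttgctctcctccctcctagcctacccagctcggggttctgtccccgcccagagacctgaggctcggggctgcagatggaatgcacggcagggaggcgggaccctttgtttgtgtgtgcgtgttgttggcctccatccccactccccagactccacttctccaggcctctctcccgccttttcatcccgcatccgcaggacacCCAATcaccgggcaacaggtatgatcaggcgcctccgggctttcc
TCACNCCAC was found in 0 of the 14 windows and in 1.13% of 35116 windows of all genes. CCAAT was found in 9 windows of 7 enzymes (34.6% of all windows) and GGGCGG in 11 windows of 8 enzymes (45% of all windows). The 2 windows of ACLY overlap (chr17:41918973-41919272 and chr17:41918902-41919201), so matches they share count in each. The window of the upstream FADS2 start (chr11:61815953-61816252) has 0 matches to any of the motifs. A match describes letters only. The gene bodies of FADS1 (chromosome 11, 61799627 to 61817003, minus strand) and FADS2 (61816203 to 61867354, plus strand) overlap by 801 bases, and FADS3 follows at 61873526 to 61892224. The sources used here do not say whether counting used strand, so reads in the shared stretch cannot be told apart.

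In the double modulation, against control, footprints of 4 of the 10 enzymes fell, those of FASN, SCD, FADS2 and FADS1, and those of 0 rose. The edgeR quasi-likelihood test, adjusted over all 8143 genes tested, called 1.93% of all genes in this comparison, 1.4% lower and 0.528% higher. Log2 fold changes were below 0 for 9 of the 10 and for 49.1% of all genes, with a median of -0.39, beside 0.01 over all genes. The libraries did not overlap, with the double modulation lower, for 7 of the enzymes and for 21% of all genes.

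FASN (chromosome 17, 82078338 to 82098236), the multifunctional synthase that makes palmitate, had 1558 and 1563 CPM of footprints in the double modulation. It had 2072 and 2037 CPM with the tRNA-Ile-UAU construct alone, 2580.0 and 2475 CPM in the tRNA-Ile-GAU knockdown alone, and 2287 and 2650.4 CPM in the control. Both double-modulation libraries were below every other library, those with the construct alone came next, and knockdown and control overlapped. Its footprints fell to 1560.2 ± 3.77 CPM in the double modulation, against 2469 ± 257 CPM in the control (SD, n = 2 each), 36.8% lower. The log2 fold change was -0.66 ± 0.10 (SE, 95% interval -0.86 to -0.46, adjusted p = 7.73e-07).

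SCD (chromosome 10, 100347233 to 100364826), the stearoyl-CoA desaturase that makes oleate and palmitoleate, had 952 and 745 CPM of footprints in the double modulation. The levels were 1015 and 1113 CPM with the construct alone, 1368 and 1069 CPM in the knockdown alone, and 1332 and 1419 CPM in the control. The double-modulation libraries were again the 2 lowest of 8, and the other conditions overlapped in part. SCD footprints fell to 848 ± 146 CPM in the double modulation, against 1376 ± 61.8 CPM in the control (SD, n = 2 each), 38.0% lower, with a log2 fold change of -0.69 ± 0.11 (adjusted p = 2.77e-06).

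FADS2, the delta-6 desaturase, had 715 and 569 CPM of footprints in the double modulation. It had 703 and 695 CPM with the construct alone, 978 and 815 CPM in the knockdown alone, and 919 and 946 CPM in the control. The 4 libraries with the tRNA-Ile-UAU construct lay below the 4 without it. FADS2 footprints fell by 0.53 ± 0.11 on the log2 scale in the double modulation (adjusted p = 0.00153), 30.7% below control. That call was lost without double-modulation replicate 2 (-0.38, adjusted p = 0.103) and without control replicate 2 (-0.51, adjusted p = 0.0897).

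FADS1, the delta-5 desaturase, had 334 and 281 CPM of footprints in the double modulation, 314 and 314 CPM with the construct alone, 376 and 368 CPM in the knockdown alone, and 439 and 410.4 CPM in the control. Here too the 4 libraries with the construct were the lowest, and the control libraries were the highest. FADS1 footprints fell by 0.45 ± 0.13 on the log2 scale in the double modulation (adjusted p = 0.0334), 27.0% below control. This call passed in 6 of 13 alternatives: it was lost without control replicate 1 (adjusted p = 0.325) or 2 (0.199), double-modulation replicate 2 (0.323) or construct replicate 2 (0.0555), and with DESeq2 (0.12), no filter on low counts (0.0576) or thinned libraries (0.0874). FADS3, which lies beside them, had 28.9 and 25.6 CPM of footprints in the double modulation, against 32.0 and 37.3 CPM in the control. Its difference of -0.33 ± 0.33 (adjusted p = 0.780) rests on 16 to 28 reads a library and could be as large as -0.98 or 0.33 by its 95% interval.

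The enzymes before FASN in the pathway did not pass in the double modulation. ACSS2 had 51.4 and 52.7 CPM in the double modulation, 71.5 and 75.1 CPM with the construct alone, 67.5 and 61.2 CPM in the knockdown alone, and 69.0 and 79.7 CPM in the control. Its double-modulation libraries were the 2 lowest, with a log2 difference of -0.52 ± 0.23 (adjusted p = 0.337). ACLY had 702 and 825 CPM in the double modulation, against 844 and 855 CPM in the control (log2 difference -0.16 ± 0.11, adjusted p = 0.617). ACACA, whose product FASN uses, had 227 and 225 CPM, against 222 and 254 CPM in the control. That difference was -0.07 ± 0.15 (95% interval -0.36 to 0.21, adjusted p = 0.901), and it was above 0 in thinned libraries (0.071) and without control replicate 2 (0.027). The intervals of ACLY (-0.38 to 0.06) and ACACA do not reach the -0.66 measured for FASN.

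The elongases did not pass either. ELOVL5 had 429 and 329 CPM of footprints in the double modulation, against 455 and 410.4 CPM in the control, a log2 difference of -0.17 ± 0.13. ELOVL6 had 83.5 and 52.7 CPM, against 58.9 and 78.0 CPM in the control, a log2 difference of 0.05 ± 0.23 with overlapping libraries. ELOVL6 was the 1 enzyme above 0, and its value lay between -0.37 and 0.29 when a library was left out, below 0 without double-modulation replicate 1 (-0.37) or control replicate 1 (-0.14), and -0.05 in thinned libraries.

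**Figure D1:**
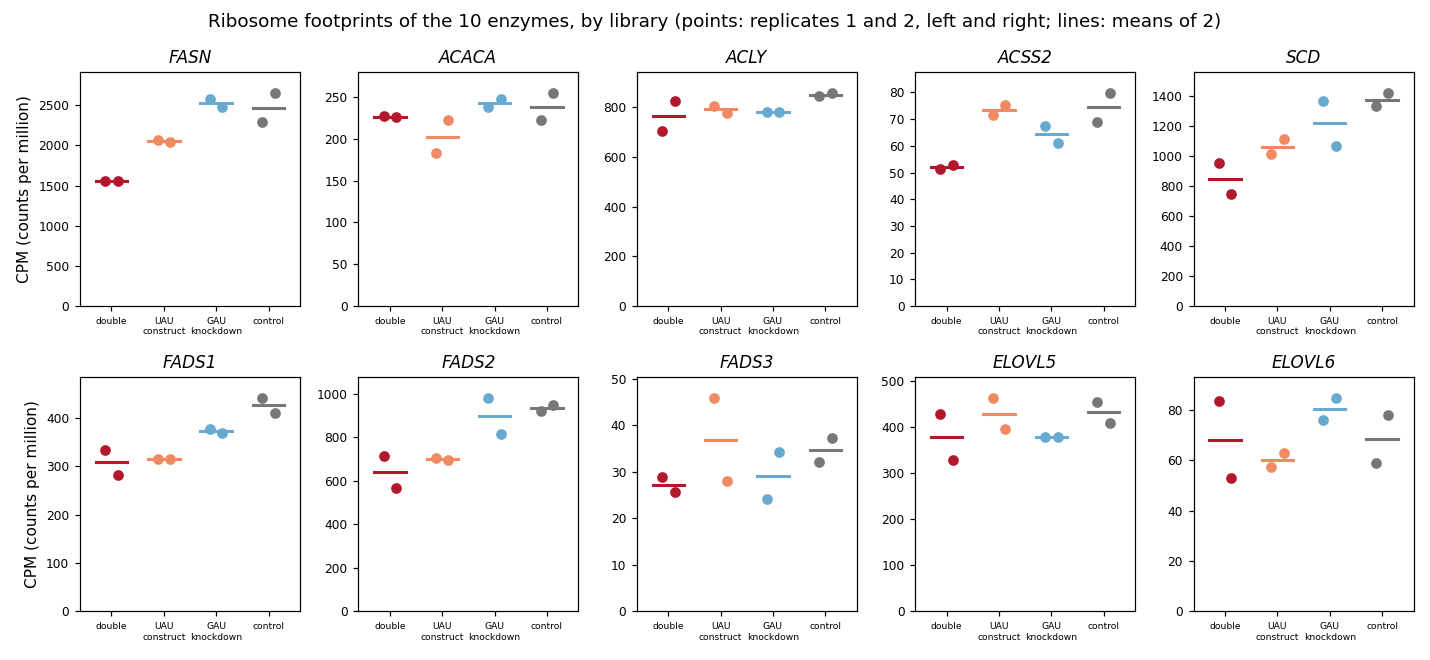
Footprint CPM (y axis, from 0) of each enzyme in the double modulation, the tRNA-Ile-UAU construct alone, the tRNA-Ile-GAU knockdown alone and the control, left to right; points are the 2 libraries and lines their mean. FASN and SCD are lowest in the double modulation, and FADS1 and FADS2 are low in both conditions with the construct.

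Mean footprints of SCD, FADS1 and FADS2 ran in the order control, knockdown, construct and double modulation, from high to low, and those of FASN likewise but for knockdown and control, which overlapped. FASN footprints averaged 1560.2 CPM in the double modulation and 2055 ± 25.0 CPM with the construct alone, while the knockdown alone averaged 2528 ± 73.9 CPM and the control 2469 CPM. FADS1 and FADS2 had about the same level in both conditions with the construct: 308 ± 37.3 and 314 ± 0.016 CPM for FADS1, and 642 ± 103 and 699 ± 5.58 CPM for FADS2, double modulation first, with overlapping libraries. For SCD the double-modulation libraries alone were clear of the next condition.

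With the tRNA-Ile-UAU construct alone, against control, 0 of the 10 enzymes passed, beside 0.0246% of all genes (2 genes, both higher). An unadjusted p under 0.05 was reached by 4 enzymes and 409 genes, and DESeq2 called 0 genes. The values were -0.27 ± 0.10 for FASN, -0.37 ± 0.11 for SCD, -0.43 ± 0.14 for FADS1 and -0.42 ± 0.12 for FADS2 on the log2 scale, with adjusted p of 0.454 or more. Knockdown alone called 0 enzymes too, beside 1.11% of all genes (0.651% lower and 0.454% higher). DESeq2 called 0 enzymes and 25 genes, and an unadjusted p under 0.05 was reached by 0 enzymes and 794 genes in the knockdown. Its log2 values were 0.03 ± 0.10 for FASN, -0.17 ± 0.11 for SCD, -0.19 ± 0.13 for FADS1 and -0.06 ± 0.11 for FADS2. These comparisons and that of the double modulation share the 2 control libraries.

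Averaged over both guides, footprints of 3 enzymes were lower with the tRNA-Ile-UAU construct than with the control construct, beside 0.43% of all genes called and 0.295% of all genes lower. FASN averaged 1807 CPM over the 4 libraries with the tRNA-Ile-UAU construct and 2498 CPM over the 4 with the control construct, a log2 fold change of -0.48 ± 0.07 (adjusted p = 2.07e-06). SCD averaged 956 and 1297 CPM with the same groups in that order (-0.44 ± 0.08, adjusted p = 9.95e-05), and FADS2 671 and 915 CPM (-0.44 ± 0.08, adjusted p = 0.000143). FADS1 averaged 311 CPM with the construct and 398 CPM without it and did not pass (-0.35 ± 0.09, adjusted p = 0.0569), though it passed without double-modulation replicate 1 (adjusted p = 0.0121). All 10 enzymes had values below 0, as did 50.2% of all genes, with a median of -0.17 beside 0.00 over all genes, though FADS3 and ELOVL5 lay above 0 in thinned libraries (0.12 and 0.054). For 3 of them, FASN, FADS1 and FADS2, all libraries with the construct were below all without it, as for 1.87% of all genes; those of SCD overlapped. The calls of FASN, SCD and FADS2 held in all 13 alternatives tried.

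Averaged over both constructs, 0 enzymes passed for the tRNA-Ile-GAU guide against the eGFP guide, beside 2.68% of all genes (1.99% lower and 0.688% higher). An unadjusted p under 0.05 was reached by 3 enzymes and 1089 genes, and DESeq2 called 0 enzymes and 69 genes. SCD came nearest (-0.25 ± 0.08, adjusted p = 0.0605), and it passed without knockdown replicate 1 (-0.34, adjusted p = 0.00603) or double-modulation replicate 1 (-0.35, adjusted p = 0.00160). Within the cells that carry the tRNA-Ile-GAU guide, a comparison added after the values were seen, log2 fold changes for the tRNA-Ile-UAU construct against the control construct were -0.70 ± 0.10 for FASN, -0.51 ± 0.11 for SCD and -0.47 ± 0.11 for FADS2 (adjusted p = 2.03e-07, 0.00420 and 0.0144), beside 0.442% of all genes called and 0.307% lower. FASN held in all 13 alternatives. SCD and FADS2 were lost without knockdown replicate 1 (adjusted p = 0.620 and 0.630) and without double-modulation replicate 2 (adjusted p = 0.196 and 0.328).

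Whether the construct acted more strongly with the tRNA-Ile-GAU guide than with the eGFP guide was tested as an interaction, and 0 enzymes passed, beside 0.0614% of all genes (5 genes) and 0 genes with DESeq2. FASN had the only unadjusted p under 0.05 among the enzymes, with a difference of effects of -0.43 ± 0.14 (adjusted p = 0.665). The differences of SCD (-0.15 ± 0.16), FADS2 (-0.06 ± 0.16) and FADS1 (0.17 ± 0.19) had 95% intervals that include 0, of -0.46 to 0.16, -0.38 to 0.26 and -0.20 to 0.54.

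**Figure D2:**
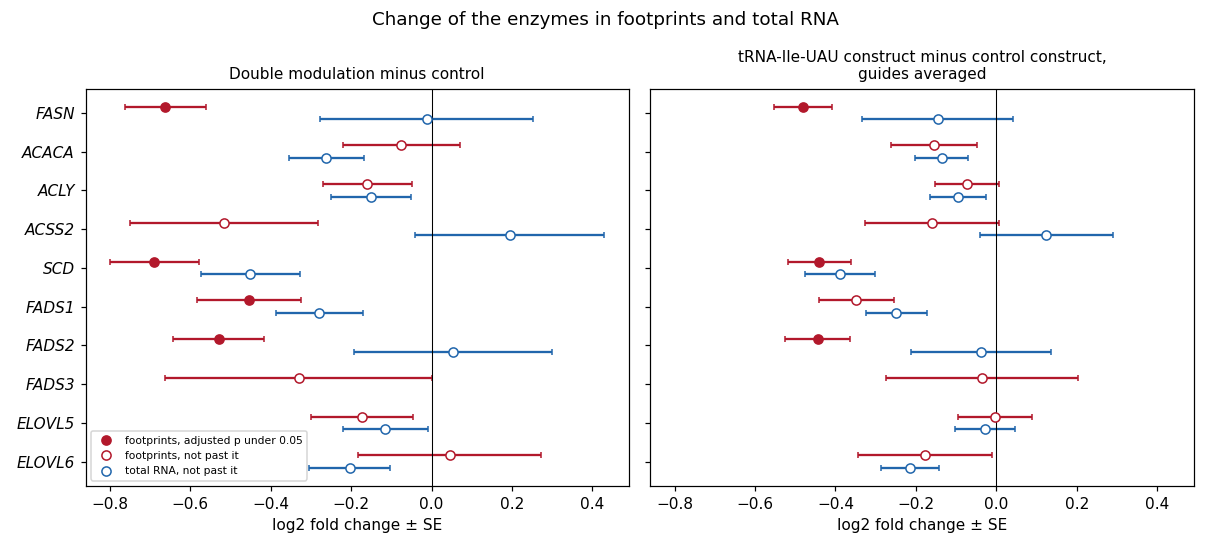
Log2 fold change ± SE (x axis) of each enzyme for the double modulation against control (left) and for the tRNA-Ile-UAU construct against the control construct averaged over guides (right). Red points are footprints and blue points total RNA, and filled points passed adjusted p 0.05. ACSS2, FASN and FADS2 differ most between footprints and total RNA in the left panel, while SCD and FADS1 lie left of 0 in both.

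Total RNA of the enzymes gave 0 calls in every comparison. For the construct alone, the construct within tRNA-Ile-GAU guide cells and the interaction, edgeR called 0 of all 11720 genes, 0%. Those 0 calls do not show that RNA of the enzymes was unchanged. In that order, 1, 4 and 1 of the 9 enzymes had an unadjusted p under 0.05, beside 233, 329 and 312 genes. Within tRNA-Ile-GAU guide cells the construct gave RNA values below 0 for 8 of the 9, beside 44.0% of all genes. The medians were -0.24 and 0.03. Libraries did not overlap, with the tRNA-Ile-UAU construct lower, for 5 enzymes and 11.3% of all genes. In the double modulation edgeR called 0.0683% of all 11720 genes tested (8 genes, 0.0512% lower and 0.0171% higher). An unadjusted p under 0.05 was reached by 3 of the 9 enzymes tested and by 893 genes. RNA values were below 0 for 7 of the 9 and for 44.6% of all genes. Their median was -0.15, beside 0.03 over all genes. The double-modulation RNA libraries lay below those of the control for 6 enzymes and for 15.6% of all genes. DESeq2 called 1 of the 9 enzymes, beside 54 genes. The knockdown alone called 0.0256% of all genes (0.00853% lower and 0.0171% higher) and the guide, averaged over constructs, 1.08% (0.896% lower and 0.179% higher). An unadjusted p under 0.05 was reached by 0 enzymes in either, beside 813 and 1232 genes. DESeq2 called 0 enzymes in either, beside 41 and 164 genes. FADS3 was left out by the filter, at 3 to 25 reads a library, the 25 being in double-modulation replicate 1. Where a double-modulation RNA library is left out, the value rests on the 1 that remains, which is assumed to vary like the other groups; 293 genes pass without replicate 1 and 1854 without replicate 2, against 8 with both, so a pass in those fits says little about a single enzyme. SCD RNA had 1624 and 1315 CPM in the double modulation, 1727 and 1681 CPM with the construct alone, 2287 and 1986 CPM in the knockdown alone, and 2018 and 1998 CPM in the control. The 4 libraries with the construct lay below the 4 without it, as in FADS1. The difference of SCD RNA in the double modulation was -0.45 ± 0.12 (adjusted p = 0.304), and it passed with DESeq2 (adjusted p = 0.0144) and without a filter on low counts (0.0143). It was -0.62 without double-modulation replicate 1 and -0.31 without replicate 2.

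FADS1 RNA had 364 and 307 CPM in the double modulation, 364 and 353 CPM with the construct alone, 435 and 400.2 CPM in the knockdown alone, and 404 and 411 CPM in the control. Its difference from control was -0.28 ± 0.11 in the double modulation (adjusted p = 0.565) and -0.42 without double-modulation replicate 1. ELOVL6 RNA was also lower in all 4 libraries with the construct (averaged over guides, -0.21 ± 0.07, adjusted p = 1.00), as was that of SCD (-0.39 ± 0.09) and FADS1 (-0.25 ± 0.08). For the construct averaged over guides edgeR called 0 of all genes, 0%, with 230 genes and 3 enzymes at an unadjusted p under 0.05, and DESeq2 called 5 genes, SCD among them (adjusted p = 0.00798). The 3 enzymes whose libraries did not overlap stand beside 0.751% of all genes. RNA values for the averaged construct were below 0 for 8 of the 9 enzymes and 45.3% of all genes. The medians were -0.14 and 0.01.

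FASN RNA had 387 and 198 CPM in the double modulation, 286 and 332 CPM with the construct alone, 437 and 316 CPM in the knockdown alone, and 299 and 293 CPM in the control. The double-modulation replicates lay on either side of all 6 other libraries but for the 437 CPM library, and their mean gave a difference of -0.01 ± 0.26. FADS2 RNA behaved alike, with 195 and 104 CPM in the double modulation, against 143 and 147 CPM in the control (0.05 ± 0.25). The log2 difference between double-modulation replicates 1 and 2 was 0.96 for FASN and 0.90 for FADS2, the 89.0th and 87.9th percentile of all tested genes. Without replicate 2 the RNA of FASN was 0.38 above control and that of FADS2 0.43 above. Without replicate 1 they were at -0.59 and -0.49, so the direction of their RNA depends on which library is used. Replicates of the knockdown alone differed in the same direction, by 0.46 for FASN and 0.36 for FADS2, the 90.7th and 86.6th percentile.

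The remaining RNA values of the double modulation were -0.26 ± 0.09 for ACACA (adjusted p = 0.505), -0.15 ± 0.10 for ACLY, 0.19 ± 0.23 for ACSS2, -0.11 ± 0.11 for ELOVL5 and -0.20 ± 0.10 for ELOVL6. ACACA had 293 and 322 CPM of RNA in the double modulation, against 372 and 364 CPM in the control. ACLY had 316 and 339 CPM in the double modulation, against 345 and 382 CPM in the control. Neither overlapped, as for 6 of the 9 enzymes tested and 15.6% of all genes with the double modulation lower.

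**Figure D3:**
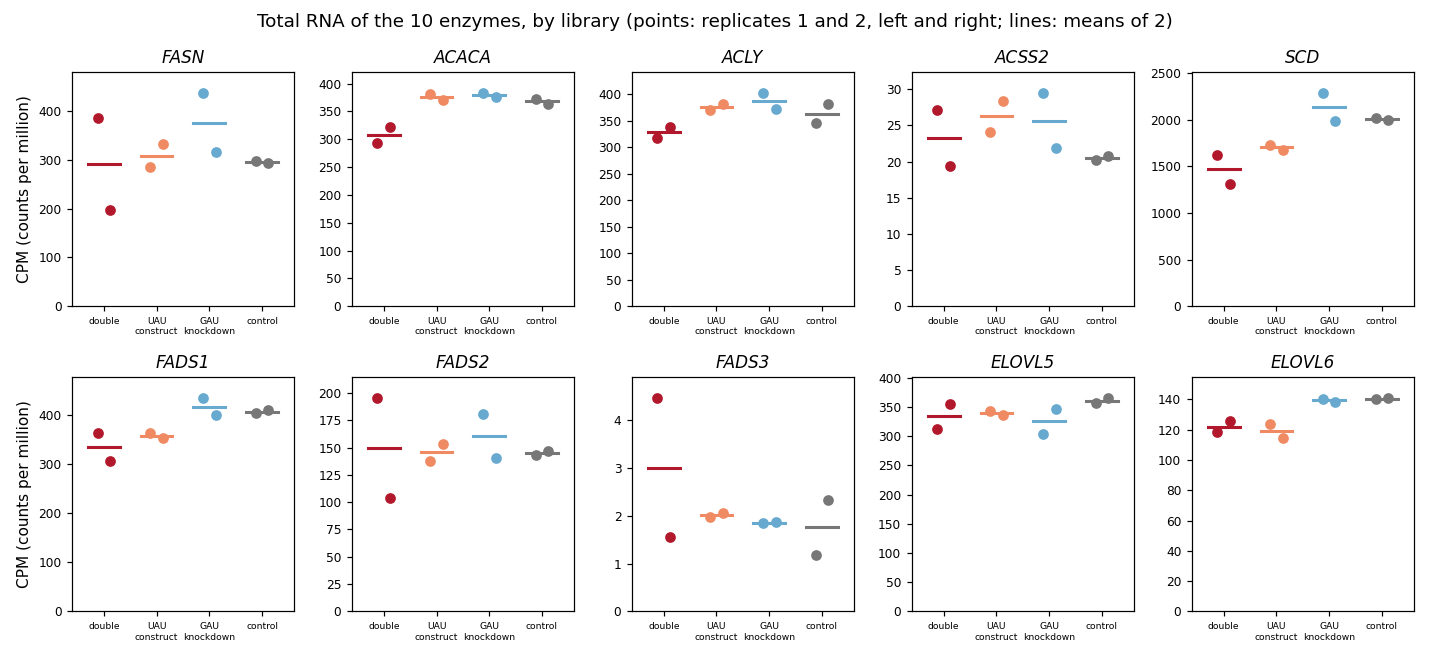
Total RNA CPM (y axis, from 0) of each enzyme by condition, in the order double modulation, tRNA-Ile-UAU construct alone, tRNA-Ile-GAU knockdown alone and control; points are the 2 libraries and lines their mean. The double-modulation replicates of FASN and FADS2 lie far apart, and SCD, FADS1 and ELOVL6 are lower in the conditions with the construct.

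Translational efficiency, tested as the footprint contrast minus the RNA contrast in 1 fit of all 16 libraries, gave 0 calls among all 8012 genes in the double modulation, 0%, with edgeR and with DESeq2; 335 genes and 2 enzymes had an unadjusted p under 0.05. The 5 lowest log2 differences were -0.74 ± 0.32 for ACSS2, -0.68 ± 0.32 for FASN, -0.62 ± 0.31 for FADS2, -0.27 ± 0.20 for SCD and -0.20 ± 0.17 for FADS1 (adjusted p = 0.927 or more). ACLY was at -0.03 ± 0.14 and ACACA at 0.17 ± 0.16. Of the 9 enzymes tested 7 were below 0, with a median of -0.20. Among all genes 56.3% were below 0, with a median of -0.06. Without RNA replicate 2 of the double modulation, where the lone library is assumed to vary like the other groups, FASN was at -1.04 ± 0.17 (adjusted p = 0.000100) and FADS2 at -0.95 ± 0.18 (adjusted p = 0.000487), and 613 genes passed. Without replicate 1, 0 enzymes passed. In control cells FASN had 8.34 times as many footprint CPM as RNA CPM, the 94.3rd percentile of 8012 genes, and FADS2 6.44 times, the 91.2nd. In the double modulation those ratios of levels were 5.34 and 4.30, the 91.5th and 88.1st percentile, and the median gene stood at 1.09 in both conditions. With the construct alone the ratios were 6.65 for FASN and 4.80 for FADS2, and in the knockdown alone 6.71 and 5.60. The double-modulation ratios divide by the mean of RNA replicates that lay far apart, at 387 and 198 CPM for FASN and 195 and 104 CPM for FADS2. SCD had a ratio of 0.577 in the double modulation and 0.685 in the control.

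As a share of all reads on genes, the 10 enzymes together took 0.505% and 0.457% of footprints in the double modulation, 0.559% and 0.561% with the construct alone, 0.671% and 0.623% in the knockdown alone, and 0.650% and 0.695% in the control. FASN was 30.7% to 39.2% of those footprints in every library, so the sum leans on it. Of total RNA reads on genes, the 10 took 0.375% and 0.301% in the double modulation, and 0.367% and 0.377% with the construct alone. Their RNA shares were 0.455% and 0.409% in the knockdown alone, and 0.412% and 0.410% in the control. FASN was 6.42% to 10.6% of those RNA reads.

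Among the regulators, 2 of 9 tested genes of SREBP and LXR control had lower footprints in the double modulation, INSIG1 and SREBF1, beside 1.4% of all genes. SREBF1, which encodes SREBP-1, had 366 and 368 CPM in the double modulation, 534 and 411 CPM with the construct alone, 549 and 552 CPM in the knockdown alone, and 509 and 553 CPM in the control. Its footprints fell by 0.53 ± 0.12 on the log2 scale (adjusted p = 0.00520), a call lost without control replicate 2 (adjusted p = 0.226). Averaged over guides SREBF1 footprints were 0.39 ± 0.09 lower with the construct, a log2 fold change of -0.39 (adjusted p = 0.00775), lost without control replicate 2 (0.188) or construct replicate 2 (0.507) and in thinned libraries (0.122). SREBF1 RNA in the double modulation was at -0.04 ± 0.29, with replicates at 83.2 and 41.1 CPM.

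INSIG1 had 154 and 97.5 CPM of footprints in the double modulation, 114 and 159 CPM with the construct alone, 205 and 234 CPM in the knockdown alone, and 227 and 227 CPM in the control. All libraries with the construct lay below all without it. INSIG1 footprints fell by 0.81 ± 0.16 on the log2 scale in the double modulation (adjusted p = 0.000727), lost without double-modulation replicate 2 (-0.56, adjusted p = 0.103). With the construct averaged over guides they fell by 0.72 ± 0.12 (adjusted p = 2.41e-05). INSIG1 lies on chromosome 7. The 351 genes there tested in footprints had a median of -0.40 in the double modulation, -0.39 in the knockdown alone and 0.00 for the construct averaged over guides. INSIG1 footprints were at -0.05 ± 0.15 in the knockdown alone. Its RNA in the double modulation was 267 and 259 CPM, against 465 and 419 CPM in the control (-0.75 ± 0.11, adjusted p = 0.0954). In the knockdown alone INSIG1 RNA was at -0.30 ± 0.11. The 521 chromosome 7 genes tested in RNA had a median of -0.35 in the double modulation and -0.39 in the knockdown alone. The part of this in the INSIG1 values was not tested. SREBF2, the sterol-pathway SREBP gene, was at -0.39 ± 0.18 in footprints of the double modulation (adjusted p = 0.342) and SCAP, the escort of both, at -0.38 ± 0.26 (adjusted p = 0.612).

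The list of cholesterol synthesis and uptake, the branch that shares these regulators, had 2 of 20 tested genes lower, 18 of 20 below 0 and a median log2 fold change of -0.32 in footprints of the double modulation, beside 1.4% of all genes lower, 49.1% below 0 and a median of 0.01. DHCR7, the last enzyme of cholesterol synthesis, had 290.1 and 205 CPM of footprints in the double modulation, against 399 and 351 CPM in the control. Its log2 fold change was -0.57 ± 0.14 (adjusted p = 0.00662), lost without control replicate 1 (0.243) or double-modulation replicate 2 (0.296) and with DESeq2 (0.0599). The same list's RNA was below 0 for 20 of 20 genes with the construct averaged over guides, at a median of -0.16 and with 0 calls, beside 45.3% of all genes below 0. In footprints of that comparison 18 of 20 were below 0 with a median of -0.19, beside 50.2% of all genes below 0 and 0.295% lower, and DHCR7 alone passed (-0.43 ± 0.10, adjusted p = 0.00775), lost without control replicate 1 (0.157), construct replicate 2 (0.280) or double-modulation replicate 2 (0.148) and with DESeq2 (0.0874).

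The other lists of lipid genes gave 0 calls in footprints of the double modulation and of the construct averaged over guides. In the double modulation their medians were -0.21 for 6 genes of precursor and NADPH supply, -0.08 for 9 other genes of elongation and desaturation, 0.01 for 5 of acyl-CoA activation, -0.16 for 6 of carboxylase control, -0.14 for 6 of mitochondrial fatty acid synthesis, 0.03 for 12 of glycerolipid synthesis and -0.06 for 16 of fatty acid oxidation. The 10 enzymes and the SREBP list had medians of -0.39 and -0.38 there, and of -0.17 and -0.01 for the construct averaged over guides. These are medians of log2 fold changes and were not tested against each other.

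**Figure D4:**
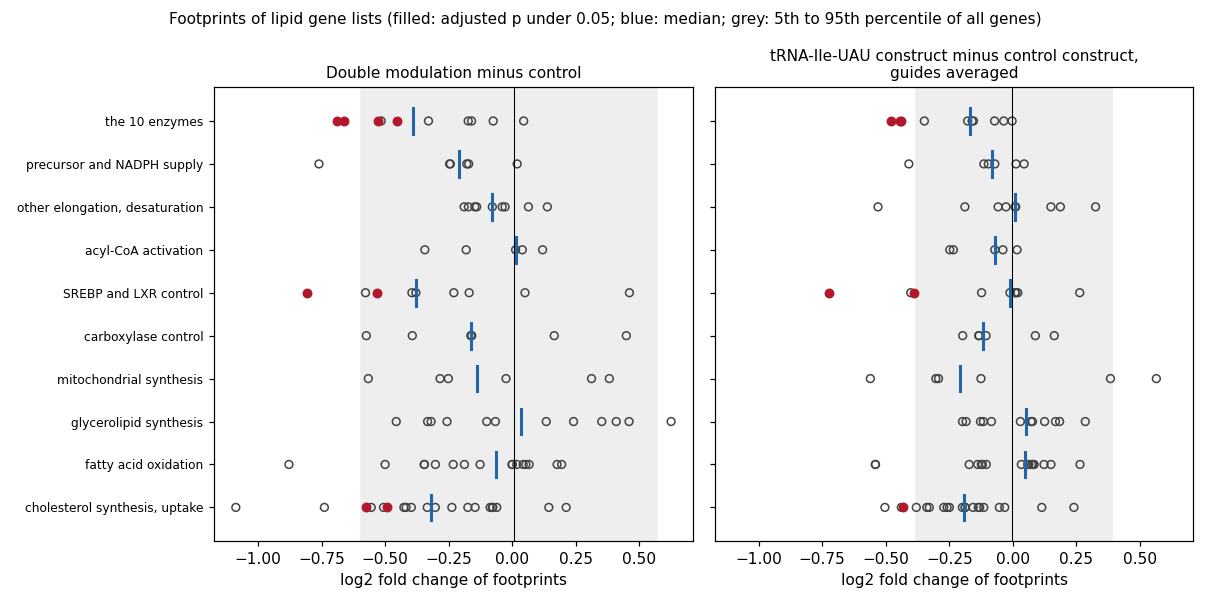
Log2 fold change of footprints (x axis) of each gene in 10 lipid lists, for the double modulation against control (left) and the tRNA-Ile-UAU construct against the control construct averaged over guides (right). Filled points passed adjusted p 0.05, blue ticks are list medians, the grey band holds the 5th to 95th percentile of all tested genes, and the black line is their median. Filled points occur in 3 lists: the 10 enzymes, SREBP and LXR control, and cholesterol synthesis and uptake.

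Over the 8 footprint libraries, which share conditions and depth, the log2 CPM of SCD and FADS2 correlated at Pearson r = 0.949, FADS1 and FADS2 at 0.924 and FASN and SCD at 0.863, as a description of these libraries. Of the 8142 other tested genes, those most like FASN were SLAIN2, ARPC4 and HIST1H1C (r = 0.974, 0.957 and 0.953). Those most like SCD were EDEM1, LAMP1 and CD63 (0.958, 0.955 and 0.953), and those most like FADS2 were GNE, MSMO1 and LAMP1 (0.963, 0.961 and 0.950).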

How the data were processed

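The deposited files hold raw read counts per gene, made by the authors with cutadapt 1.17, STAR 2.5.2a and HTSeq against hg38, per the submitters' processing notes; settings, annotation and strand use are not given in the sources used here. The 5 HTSeq summary lines were left out. Reads marked as aligning to several places were 97.0% to 98.8% of records on a gene, on no feature, ambiguous or aligning to several places. Near-identical genes are thus undercounted, and the remaining summary lines were not in that sum. A gene missing from a footprint file was set to 0. Titles gave each library's assay, guide target and construct. Counts were tested with edgeR 4.0.16 (R 4.3.3; filterByExpr, minimum count 10 and total 15; TMM; quasi-likelihood F test), with all 8 libraries of an assay, or all 16 for translational efficiency, in 1 fit, and Benjamini-Hochberg adjustment over all tested genes at 0.05. A log2 fold change is given ± SE, and log2 CPM used a prior count of 2. DESeq2 1.42.0, its size factors, no filter, thinned libraries, a replicate block and leaving out each library were alternatives. The fits were tested on simulated data. Positions and promoters are from RefSeq, GRCh38.p14. All 10 enzymes are named; of the other lists, genes past 0.05 and SREBF1, SREBF2, SCAP and INSIG1. For FASN, SCD and FADS2 the 3 genes with the highest r are named. One gene that passed is not reported here. The members and lists were chosen with earlier results of these data known.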

Additional observations from a re-analysis of the deposited data

How the results depend on the processing

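Of the single-gene values compared with alternatives that leave out no library, 0 turned direction by more than the standard error (in thinned libraries the footprint values of ACACA, at 0.071, and ELOVL6, at -0.054, crossed 0 in the double modulation, those of FADS3, ELOVL5 and SCAP, at 0.12, 0.054 and -0.068, for the averaged construct, and that of ELOVL5, at 0.043, for the construct alone), 15 lost and 6 gained a call, and 447 did neither. In footprints of the double modulation FASN and SCD passed in all 13 alternatives, at log2 values of -0.76 to -0.55 and -0.88 to -0.53, FADS2 in 11 and FADS1 in 6. Counts of members past the threshold moved from 0 to 1 for the guide in footprints under the replicate block, and from 0 to 1 with DESeq2 and without a filter in total RNA for the double modulation, the construct averaged over guides and the construct within tRNA-Ile-GAU guide cells; the cause was not tested. The gene was SCD for the guide, the double modulation and the averaged construct. In total RNA DESeq2 called 54 genes for the double modulation, 5 for the averaged construct and 2 for the construct within tRNA-Ile-GAU guide cells. Leaving out each library gave 2 to 4 members for the double modulation in footprints (2 without control replicate 2 or double-modulation replicate 2), 0 to 1 for the guide, 1 to 3 for the construct within tRNA-Ile-GAU guide cells and 3 to 4 for the construct averaged over guides. In total RNA and translational efficiency a group with a library left out rests on 1 library, and calls over all genes varied widely too. Counts of members from those fits are therefore not given. Over all genes, calls for the double modulation in footprints numbered 157, 48 with DESeq2 and 35 to 173 with a library left out; in total RNA they numbered 8, 54 with DESeq2 and 0 to 1854, the highest without double-modulation replicate 2. Direction turned by more than the standard error, or across a call, when a library was left out for ELOVL6 footprints in the double modulation (-0.37 to 0.29), FASN and FADS2 footprints in the knockdown alone (-0.068 to 0.14 and -0.19 to 0.070), the SCD interaction (-0.35 to 0.034), RNA in the double modulation of FASN (-0.59 to 0.38), ACSS2 (-0.086 to 0.40) and FADS2 (-0.49 to 0.43), and RNA averaged over guides of FASN (-0.43 to 0.056) and FADS2 (-0.30 to 0.15). The replicate numbers did not pair samples: libraries of the same number had deviations correlated at -0.04 to 0.06 in footprints and -0.42 to 0.36 in total RNA. With the replicate block SCD passed for the guide (-0.26, adjusted p = 0.0180) and FADS1 for the construct averaged over guides (-0.35, adjusted p = 0.0315), while the RNA calls of CYP51A1 (adjusted p = 0.157 in the double modulation and 0.0509 for the guide) and PRKAG2 (0.0761) were lost. Depth limits FADS3, ACSS2 and ELOVL6 most, whose standard errors in footprints of the double modulation were 0.33, 0.23 and 0.23.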

Other observations

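A few lipid genes outside the 10 enzymes passed with the tRNA-Ile-GAU guide. EBP, the sterol isomerase of cholesterol synthesis, had 169 and 147 CPM of footprints in the knockdown alone, against 239 and 222 CPM in the control (-0.55 ± 0.15, adjusted p = 0.0468). That call was lost without any 1 of the control, construct or knockdown libraries (adjusted p = 0.0678 to 0.436), without a filter on low counts (0.0971) and in thinned libraries (-0.32, adjusted p = 0.677), and it passed in 4 of 12 alternatives.

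CYP51A1, the lanosterol demethylase, had 122 and 121 CPM of total RNA in the double modulation, against 219 and 197 CPM in the control (-0.78 ± 0.11, adjusted p = 0.0493). PRKAG2, a regulatory subunit of AMP-activated kinase, which phosphorylates acetyl-CoA carboxylase, had lower RNA with the tRNA-Ile-GAU guide, constructs averaged (-0.48 ± 0.09, adjusted p = 0.0478), as did CYP51A1 (-0.48 ± 0.08, adjusted p = 0.0241). CYP51A1 and PRKAG2 lie on chromosome 7, whose 521 tested genes had a median RNA difference of -0.36 with that guide, and the part of this in their values was not tested. Each of these 3 calls was lost without any 1 of the control, construct or knockdown libraries, and that of CYP51A1 in the double modulation also in thinned libraries (adjusted p = 0.0893). CYP51A1 passed in 5 of 13 alternatives in the double modulation and in 6 of 13 for the guide, and PRKAG2 in 6 of 13.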
